A study of Mus musculus with 2 samples.

Results

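The kinesin superfamily was examined in total RNA of mouse neural tubes taken on embryonic day 12.5. Members were all protein-coding genes whose symbol begins with Kif and a digit, together with Kifc1, Kifc2 and Kifc3, found by Ensembl identifier in the gene table of each library. The rule gave 42 genes out of 21474 protein-coding genes matched to a name. They were sorted by known role into 12 mitotic kinesins, 17 transport kinesins and 13 others. The rule rests on symbols, so it also took Kif1bp, which encodes a protein that binds kinesins and is not itself a motor. The labels give 1 group of 2 libraries, both from strain B6NCrl, with male and female embryos pooled and no treatment. Replicate 1 was made from a pool of 120 embryos and replicate 2 from a pool of 88, and both carry the same donor identifier. No second tissue, stage or treatment was included, so gene classes were compared within the tissue and the pools were set side by side, and no p-value is given. With 1 library per pool, an SD (n = 2) measures the spread between these libraries, which may be technical.

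Kinesins are motor proteins that use ATP to move along microtubules or to take microtubule ends apart. Mitotic kinesins build the spindle, move and align chromosomes and complete the division of the cell, and they are made mainly in cells that are dividing. Transport kinesins carry vesicles, mitochondria, protein complexes and RNA, and in neurons most of them move cargo from the cell body along the axon or the dendrites. At this stage the neural tube holds dividing progenitors beside neurons that are growing axons.

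Replicate 1 held 32612423 expected counts and replicate 2 held 34555002, and kinesin genes took 104974 and 113774 of them. A count of 0 allows up to 0.0949 CPM in replicate 1 and 0.0895 CPM in replicate 2 (3 counts), a limit for counting error only. Levels are deposited TPM values, which are corrected for transcript length and depth. Markers of the labelled tissue were present, with 4 of 4 markers of dividing cells, of neural progenitors and of neurons at 1 TPM or more in both libraries. Markers of other tissues were also present. All 4 sensory ganglion markers and all 4 muscle markers reached 1 TPM in both libraries, as did all 4 erythroid markers, led by the embryonic globin Hbb-y at 5432 and 5298 TPM in replicates 1 and 2. Of 4 markers of cells with motile cilia, Foxj1 reached 1 TPM in both libraries (5.86 and 6.05 TPM), while the ciliary dyneins Dnah5 and Dnah11 stayed at or below 0.18 TPM. In such bulk RNA, fewer cells of a type and less RNA per cell cannot be told apart.

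Most of the family was expressed. Of the 42 kinesins, 37 reached 1 TPM in both libraries (88.1%), against 62.1% of all protein-coding genes. All 12 mitotic kinesins reached that level, as did 16 of 17 transport kinesins and 9 of 13 others. From transcripts that code for the whole protein, 35 kinesins reached it. Kif6 (0.42 and 0.89 TPM in replicates 1 and 2) and Kif19a (0.70 and 0.60 TPM) then fell short. From all transcripts, Kif17, a dendritic motor, and Kif27, a kinesin of the motile cilium, reached 1 TPM in replicate 2 only. Kif28, Kif12 and Kif2b stayed under 1 TPM in both libraries. Together the kinesins held 1241 TPM in replicate 1 and 1242 TPM in replicate 2, which is 0.124% of all TPM in each library.

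**Figure D1:**
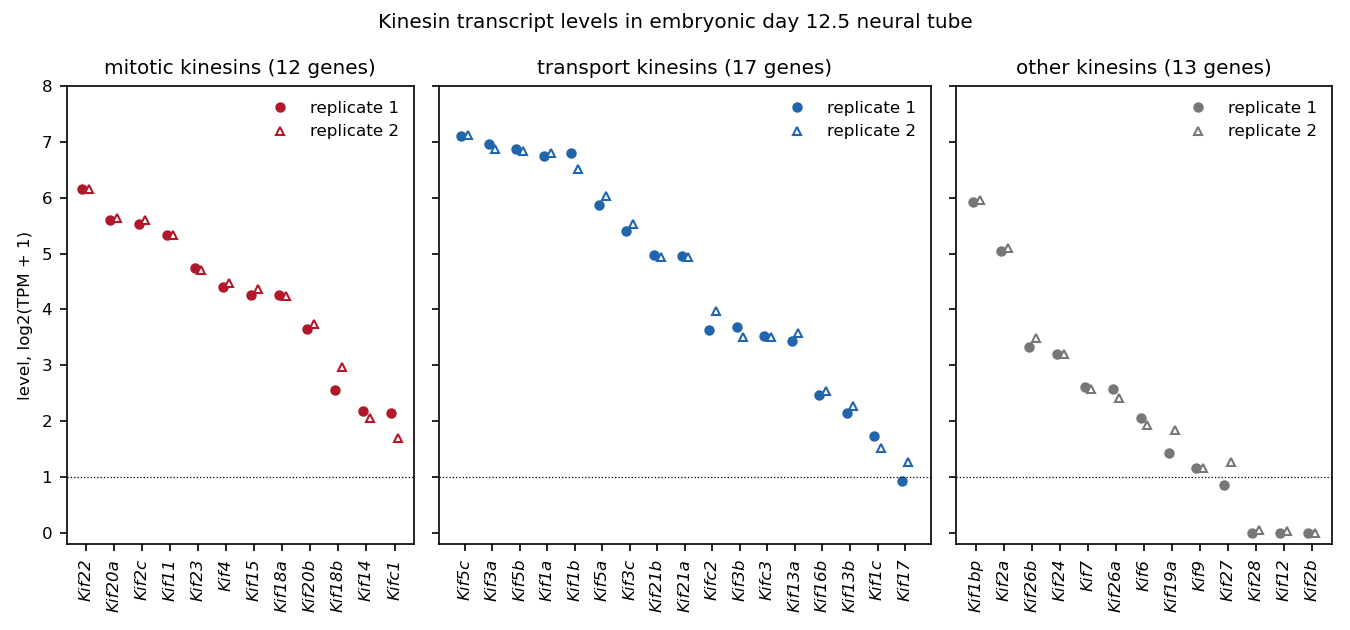
Level of each of the 42 kinesins as log2(TPM + 1), in replicate 1 (filled circles) and replicate 2 (open triangles), by class and in falling order of the mean. The dotted line marks 1 TPM, which all 12 mitotic and 16 of 17 transport kinesins reached in both libraries.

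The mitotic class was led by Kif22, Kif20a and Kif2c. Kif22, a chromokinesin that pushes chromosome arms away from the spindle poles, had 70.0 TPM in replicate 1 and 70.5 in replicate 2. Kif20a, which delivers regulators to the central spindle, had 47.4 and 49.0 TPM. Kif2c, which takes microtubules apart at centromeres and so helps to correct faulty attachments, had 45.0 and 47.7 TPM. These values lie close together, and for each of the 3 genes the pools differed by less than 3 TPM.

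Next came Kif11, Kif23, Kif4, Kif15 and Kif18a (gene coordinates are those of GENCODE M21 on GRCm38). Kif11 (ENSMUSG00000012443, chr19:37376403-37421859, plus strand), which slides antiparallel microtubules apart and separates the spindle poles, had 39.1 TPM in replicate 1 and 39.2 in replicate 2. Kif23 (ENSMUSG00000032254, chr9:61915905-61946774, minus strand), the motor subunit of the centralspindlin complex, had 25.9 and 25.2 TPM. Kif4, a chromokinesin that also limits the length of midzone microtubules with Prc1, had 20.1 and 21.2 TPM, Kif15, which supports the bipolar spindle beside Kif11, had 18.2 and 19.6 TPM, and Kif18a, which dampens chromosome movement at metaphase, had 18.3 and 17.9 TPM. Kif15 and Kif18a changed order between the libraries, while Kif4 stood above both in each when all transcripts were taken. From transcripts that code for the whole protein, Kif15 (18.2 and 19.6 TPM) stood above Kif4 (17.4 and 17.5 TPM) in each library.

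The low end of the class held Kif20b, Kif18b, Kif14 and Kifc1. Kif20b, which acts late in cytokinesis, had 11.6 and 12.4 TPM. Kif18b, a regulator of astral microtubules, had 4.90 and 6.87 TPM, and Kif14, which acts at the midbody with citron kinase, had 3.56 and 3.15 TPM. Kifc1, which moves towards microtubule minus ends and focuses spindle poles, had 3.44 and 2.23 TPM. The mean levels of the 12 genes ran from 2.84 TPM (Kifc1) to 70.2 TPM (Kif22).

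Promoters of the mitotic class shared a sequence feature that the choice of members did not use. The CHR motif (cell cycle genes homology region) is a short element, known from promoters of genes that are switched on late in the cell cycle, to which the MuvB complexes bind. It was searched as TTTGAA or TTTAAA on both strands of RefSeq promoter windows (GRCm38.p6), each running from 250 bases before to 50 bases after a gene's start. A window was found for 32 members. Of the mitotic kinesins with a window, 10 of 11 held a match, against 1 of 11 transport kinesins (Kif1a, in its second window), 2 of 10 others (Kif26b and Kif27) and 27.3% of 16317 protein-coding genes. Kif18a was the mitotic kinesin without a match, and no window was matched for Kif20a. The windows shown here are the 30 bases around the match nearest to the start in each of the 10 mitotic promoters, to let the element and its place be compared. They are written 5′ to 3′ on the strand of the gene with the matched hexamer in capitals, where TTCAAA is TTTGAA read on the opposite strand.
Kif22: gggccccggtaaTTCAAAagagagaagcgg
Kif2c: ccaggctgctctTTCAAAcctgagtaatgc
Kif11: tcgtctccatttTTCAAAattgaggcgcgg
Kif23: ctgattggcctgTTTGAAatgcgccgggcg
Kif4: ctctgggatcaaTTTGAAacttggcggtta
Kif15: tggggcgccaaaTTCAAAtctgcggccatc
Kif20b: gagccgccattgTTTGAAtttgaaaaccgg
Kif18b: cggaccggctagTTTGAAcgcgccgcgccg
Kif14: gatctctctcttTTTAAAgtttgtagtaac
Kifc1: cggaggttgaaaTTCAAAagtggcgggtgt

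These stretches lie at chr7:127042420-127042449 (minus strand) for Kif22, chr4:117178858-117178887 (minus strand) for Kif2c, chr19:37376351-37376380 (plus strand) for Kif11, chr9:61946780-61946809 (minus strand) for Kif23 and chrX:100626072-100626101 (plus strand) for Kif4. Those of the other 5 are chr9:122951050-122951079 (plus strand) for Kif15, chr19:34922353-34922382 (plus strand) for Kif20b, chr11:102925104-102925133 (minus strand) for Kif18b, chr1:136467794-136467823 (plus strand) for Kif14 and chr17:33890615-33890644 (minus strand) for Kifc1, all on GRCm38.p6. The matches sat close to the start. In Kif11 the first base of the motif lay 19 bases before it, in Kif22 17 bases before it and in Kif15 19 bases before it. In Kif23, Kif18b, Kif20b and Kif4 it lay at base 3, 4, 8 and 20 counted from the RefSeq start. Kif2c was the exception, with its nearest match 103 bases before the start. Kif14 was the one gene of the 10 whose nearest match read TTTAAA, and it held a TTTGAA further out, at 228 bases before the start.

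Counting only matches that begin within 50 bases of the start left 9 of 11 mitotic kinesins, against 1 of 11 transport kinesins, 1 of 10 others and 7.81% of protein-coding genes. Matches upstream of the start alone were found in 5 of 11 mitotic kinesins, against 1 of 11 transport kinesins, 2 of 10 others and 25.4% of protein-coding genes. In Kif23, Kif4, Kif20b, Kif18b and Kifc1 the match fell only in the bases after the RefSeq start. A CCAAT box (CCAAT on either strand), bound by NF-Y, accompanied the CHR motif in 7 of 11 mitotic kinesins, 0 of 11 transport kinesins and 2 of 10 others, against 11.1% of protein-coding genes. This joint count cannot exceed the CHR count. With or without a CHR match, a CCAAT box was found in 7 of 11 mitotic, 3 of 11 transport and 5 of 10 other kinesins, against 42.0% of protein-coding genes. In no kinesin window did the matches of the 2 motifs share a base. Among partner genes of the spindle and midbody with a window, 12 of 13 held a CHR match. A match is a string of letters and not a tested binding site, and a window without one says only that these letters are not in it. The RefSeq start lay inside the outermost start of the gene in GENCODE M21 by 3867 bases for Kif2c, 1505 for Kif14 and 328 for Kif4. The nearest GENCODE transcript start was 28 bases away for Kif2c, 87 for Kif14 and 328 for Kif4. For Kif23 the RefSeq start lay 25 bases outside the GENCODE start, so its match falls before the GENCODE transcript. Whether a match counts as upstream thus depends on the start used.

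**Figure D2:**
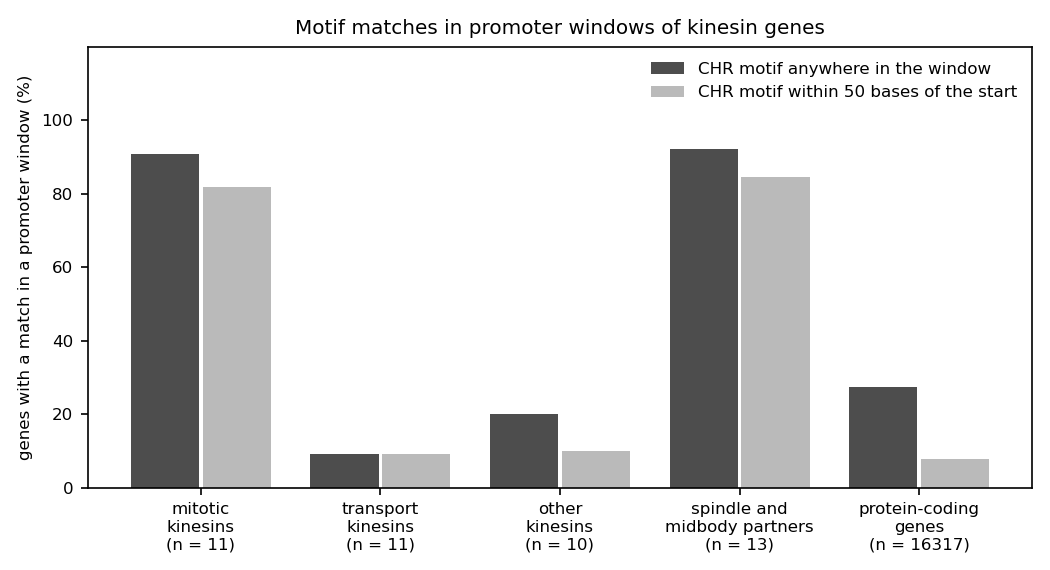
Percentage of genes with a CHR motif match (TTTGAA or TTTAAA on either strand) anywhere in a promoter window (dark bars) and within 50 bases of the start (light bars), for each kinesin class, the spindle and midbody partners and all protein-coding genes with a window. Mitotic kinesins (90.9% and 81.8%) and spindle partners (92.3% and 84.6%) stood above transport kinesins (9.09% on both counts) and protein-coding genes (27.3% and 7.81%).

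The proteins that mitotic kinesins work with were present as well. All 16 spindle and midbody partners reached 1 TPM in both libraries, with a median of 58.4 ± 1.26 TPM (SD, n = 2). Racgap1, the partner of Kif23 in centralspindlin, was the highest at 170 TPM in replicate 1 and 180 TPM in replicate 2. Birc5 and Cdca8, subunits of the chromosomal passenger complex, had 151 and 139 TPM (Birc5) and 99.4 and 99.7 TPM (Cdca8). Cenpe, a kinesin of the kinetochore that the symbol rule does not take, had 16.8 and 17.2 TPM.

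Among transport kinesins the heavy chains of kinesin-1, the main motor of fast axonal transport, were led by the neuronal form. Kif5c (ENSMUSG00000026764, chr2:49619298-49774778, plus strand) had 136 TPM in replicate 1 and 139 in replicate 2 and was the highest kinesin of all, at rank 1145 among protein-coding genes by mean TPM. Kif5b, made in most cell types, had 117 and 114 TPM, and the neuronal Kif5a had 57.5 and 64.5 TPM. As shares of the 3 heavy chains, Kif5c held 43.8 ± 0.00516%, Kif5b 36.7 ± 1.28% and Kif5a 19.4 ± 1.27% (SD, n = 2). The order was the same in both pools.

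Kinesin-2 motors carry vesicles in axons and also build cilia, as a heterotrimer of Kif3a, either Kif3b or Kif3c, and the adaptor Kifap3. Kif3a (ENSMUSG00000018395, chr11:53567379-53601967, plus strand) had 124 TPM in replicate 1 and 116 in replicate 2, Kif3c had 41.5 and 45.3 TPM and Kif3b had 11.9 and 10.4 TPM. The neuronal subunit Kif3c was thus the higher of the possible partners of Kif3a in each library. Summed, Kif3b and Kif3c came to 0.456 ± 0.0355 of Kif3a from all transcripts and 0.798 ± 0.0144 of Kif3a from transcripts that code for the whole protein (SD, n = 2). Kif17, the homodimeric member of the family, had 0.910 and 1.41 TPM, of which transcripts that code for the whole protein held 0.12 and 0.22 TPM.

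Kinesin-3 motors carry precursors of synaptic and dense-core vesicles. Kif1a (ENSMUSG00000014602, chr1:93015464-93101951, minus strand), which moves synaptic vesicle precursors, had 106 TPM in replicate 1 and 111 in replicate 2, and Kif1b had 110 and 90.1 TPM, so the order of the pair turned over between the pools. The remaining members were far lower. Kif13a, a carrier of endosomes, had 9.82 and 10.99 TPM, Kif16b, which moves early endosomes, had 4.51 and 4.80 TPM, Kif13b had 3.44 and 3.83 TPM, and Kif1c had 2.32 and 1.87 TPM. Kif1a and Kif1b together held most of the family, at 46.7 ± 3.40% and 42.9 ± 4.16% of its TPM (SD, n = 2). In these shares the family also includes Kif14, given above among the mitotic kinesins, at 1.44 ± 0.0609%.

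The 4 transport kinesins outside these families fell into a middle and a lower pair. Kif21b and Kif21a, kinesins that also restrain microtubule growth, had 30.6 and 29.7 TPM (Kif21b) and 30.1 and 29.6 TPM (Kif21a) in replicates 1 and 2. From all transcripts they did not differ beyond the spread between libraries. From transcripts that code for the whole protein, Kif21b (21.9 and 22.6 TPM) stood below Kif21a (30.1 and 29.6 TPM) in each library. Kifc2 and Kifc3, which belong to the family of minus-end motors, had 11.4 and 14.6 TPM (Kifc2) and 10.5 and 10.4 TPM (Kifc3).

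The share of TPM held by complete coding transcripts differed between the classes, and it depends on which transcripts are annotated for a gene. Complete coding transcripts, which are annotated as protein-coding without a missing end, held 96.4 ± 0.561% of mitotic kinesin TPM and 72.3 ± 3.81% of transport kinesin TPM (SD, n = 2). Among genes at a mean of 10 TPM or more, 1 of 9 mitotic kinesins (Kif4) fell below 90% complete, against 5 of 13 transport kinesins (Kif1a, Kif5b, Kif3a, Kif1b and Kif21b). A gene whose annotated transcripts are all complete holds 100% whatever its reads. Among these genes that applied to the mitotic Kif22, Kif20a, Kif11, Kif23, Kif15 and Kif20b. It also applied to the transport kinesins Kif5a, Kif3c, Kif21a, Kifc2, Kif3b, Kifc3 and Kif13a. The TPM outside complete coding transcripts sat in incomplete or noncoding transcripts and in transcripts marked for nonsense-mediated decay. An example of the last is Kif21b-204 of 9254 nucleotides, with 5.82 and 4.89 TPM in replicates 1 and 2. Its annotated coding sequence has 1639 codons, against 1624 for the complete Kif21b-201. For Kif1a, the incomplete Kif1a-206 of 528 nucleotides had 37.1 TPM in replicate 1 and 32.1 in replicate 2, and the noncoding Kif1a-208 of 570 nucleotides had 27.7 and 31.1 TPM. Both rested on few reads, 317 and 284 expected counts for Kif1a-206, against 4423 and 5605 for Kif1a-204, the full coding transcript that led in replicate 2 with 27.4 and 33.5 TPM. TPM of so short a transcript is uncertain, because a small count is divided by a small effective length.

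**Figure D3:**
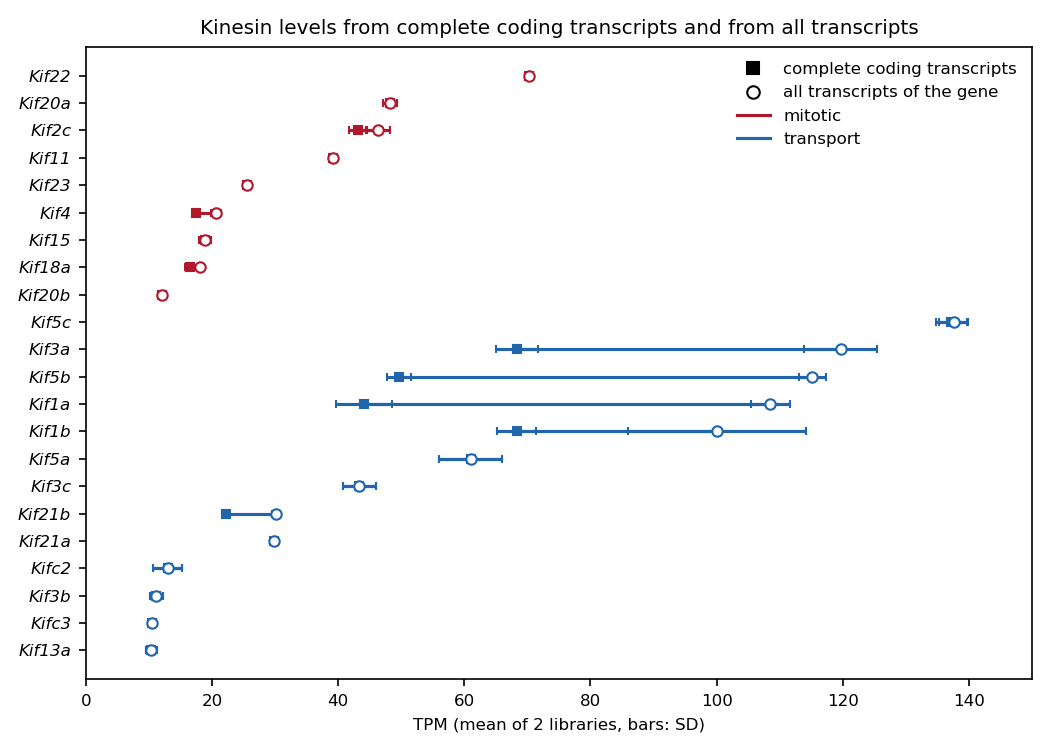
Mean TPM of kinesins with at least 10 TPM, from complete coding transcripts (filled squares) and from all transcripts of the gene (open circles), with mitotic genes in red and transport genes in blue, and error bars of 1 SD over the 2 libraries. The squares and circles lie together for most genes and far apart for Kif3a, Kif5b, Kif1a and Kif1b.

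For Kif5b the incomplete Kif5b-202 of 2006 nucleotides had 61.0 and 56.6 TPM, against 48.3 and 51.0 TPM for the full-length Kif5b-201. For Kif3a, Kif3a-206, a transcript of 770 nucleotides marked for nonsense-mediated decay, had 42.2 and 33.8 TPM, and the leading transcript was not the same in the 2 libraries. From complete coding transcripts alone the order of the transport motors changed. Kif5c stayed first at 136 and 139 TPM in replicates 1 and 2. Kif3a (66.1 and 70.7 TPM), Kif1b (66.1 and 70.5 TPM) and Kif5a (57.5 and 64.5 TPM) followed, with Kif5b at 48.3 and 51.0 TPM and Kif1a at 41.0 and 47.2 TPM. On this scale Kif5a stood above Kif5b in each library, the reverse of the order from all transcripts, and the kinesin-1 shares became 55.4 ± 1.11% for Kif5c, 24.6 ± 1.09% for Kif5a and 20.0 ± 0.0187% for Kif5b. Of the 24 kinesins with a mean of at least 10 TPM, 10 have 1 transcript in the tables, and of the other 14, 12 had the same leading transcript in both libraries.

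Kif1b makes motors with different tails. The long form carries synaptic vesicle precursors and the short form carries mitochondria. Transcripts for the long form, of 1770 and 1816 codons, summed to 46.5 TPM in replicate 1 and 50.5 TPM in replicate 2, and the transcript for the short form, of 1150 codons, had 19.6 and 20.0 TPM. The long form was the higher one in each library and made up 71.0 ± 0.928% of complete coding Kif1b TPM (SD, n = 2). As a share of all Kif1b transcripts it was 42.2% in replicate 1 and 56.1% in replicate 2. That difference between pools moved with Kif1b-205, a retained-intron transcript of 587 nucleotides, which had 36.4 TPM in replicate 1 and 13.9 in replicate 2 from 353 and 140 expected counts.

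Transport kinesins were set beside the proteins that link them to cargo, all 15 of which reached 1 TPM in both libraries. Klc1, the neuronal kinesin-1 light chain, was the highest at 397 TPM in replicate 1 and 417 TPM in replicate 2. Arl8a, a small GTPase of lysosomal transport, had 152 and 163 TPM, and Mapk8ip1, a scaffold that binds kinesin-1, had 119 and 127 TPM. Summed over genes, the kinesin-1 heavy chains had 314 ± 5.09 TPM and the light chains 502 ± 14.8 TPM, a ratio of 0.626 ± 0.00828 (SD, n = 2). From complete coding transcripts the ratio was 0.529 ± 0.000776, so heavy chains stood below light chains on either scale. The kinesin-2 subunits Kif3a, Kif3b and Kif3c summed to 2.93 ± 0.232 of Kifap3 from all transcripts and 2.06 ± 0.0323 from complete coding transcripts. These are ratios of transcripts and not of protein.

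Dynein with its cofactor dynactin is the motor of the opposite direction, towards microtubule minus ends. All 16 of its subunits examined reached 1 TPM in both libraries, with a median of 130.7 ± 1.65 TPM, against 52.3 ± 0.0212 TPM over the transport partners (SD, n = 2). The light chain Dynll1, which also serves other complexes, led with 1175 and 1118 TPM, followed by the light chain Dynlrb1 with 387 and 414 TPM and the dynactin filament subunit Actr1a with 210 and 220 TPM.

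**Figure D4:**
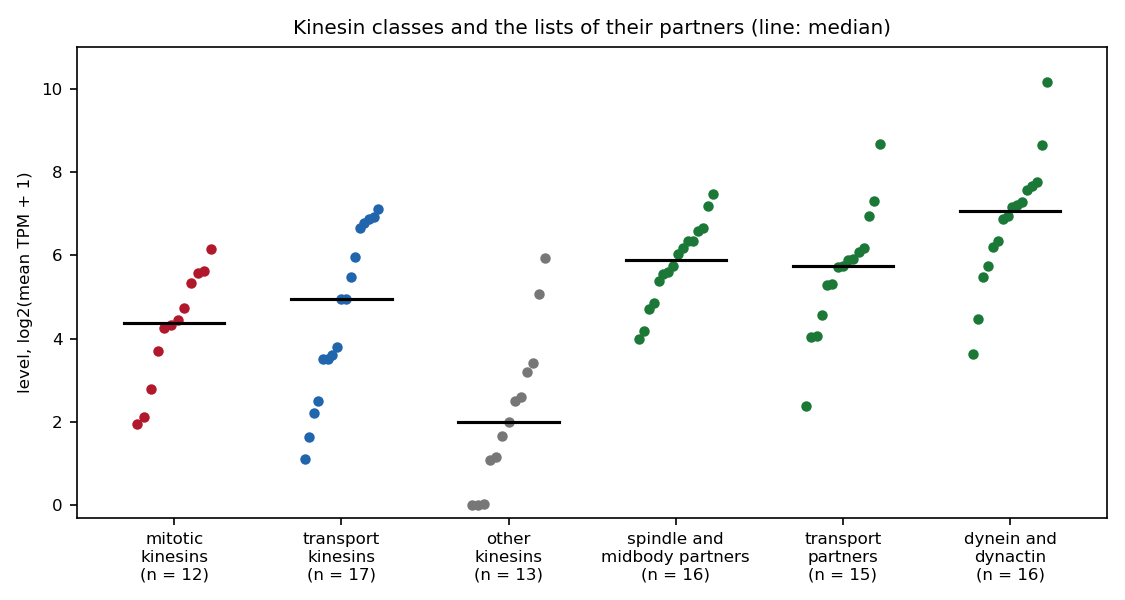
Level of each gene as log2(mean TPM + 1) over both libraries, for the 3 kinesin classes and the 3 lists of partners, with 1 point per gene and a line at the median of each list. The medians of spindle partners (58.4 TPM), transport partners (52.3 TPM) and dynein and dynactin (130.7 TPM) stand above those of mitotic (19.8 TPM), transport (29.8 TPM) and other kinesins (2.99 TPM).

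The 13 kinesins outside both classes were mostly low. Kif1bp, whose product is known for its role in axon growth, had 60.0 TPM in replicate 1 and 61.1 in replicate 2. Kif2a, which takes microtubules apart and limits the growth of axon branches, had 32.0 and 33.4 TPM. Kif26b, a kinesin without known motor activity, had 9.10 and 10.2 TPM. Kif24 and Kif7, both kinesins of the primary cilium, had 8.18 and 8.25 TPM (Kif24) and 5.12 and 4.97 TPM (Kif7), and Kif7 is known in the neural tube as a regulator of Hedgehog signalling. Kif26a had 4.95 and 4.34 TPM, Kif6 3.14 and 2.83 TPM, and Kif9, a kinesin of motile flagella and cilia, 1.24 TPM in each library. From complete coding transcripts Kif24 had 3.44 and 3.40 TPM, and Kif6 had 0.42 and 0.89 TPM. Kif28 had 0 and 3 expected counts, Kif12 had 0 and 1, and Kif2b had none in either library.

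Taken by class, mitotic and transport kinesins overlapped in level. The median was 19.8 ± 0.824 TPM over 12 mitotic kinesins and 29.8 ± 0.339 TPM over 17 transport kinesins (SD between libraries, n = 2), against 5.58 ± 0.110 TPM over all protein-coding genes. The middle of the mitotic class, between its quartiles, spanned 10.5 to 40.9 TPM, and that of the transport class 10.4 to 100.01 TPM. On the log2(TPM + 1) scale the mitotic median lay below the transport median by a difference of -0.57 ± 0.07, with -0.62 in replicate 1 and -0.52 in replicate 2. The gap exceeds the change between libraries and is smaller than the spread of members within either class. From complete coding transcripts it was -0.28, and by TMM-scaled CPM, which is not corrected for length, -1.07. The transport class held 64.6 ± 0.634% of kinesin TPM, the mitotic class 25.1 ± 0.396% and the others 10.3 ± 0.238%.

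The classes were least alike at the top. Of the mitotic kinesins, Kif22 alone passed 50 TPM in mean level, whereas 6 transport kinesins did (Kif5c, Kif3a, Kif5b, Kif1a, Kif1b and Kif5a). At the low end the classes were alike, with 3 of 12 mitotic and 4 of 17 transport kinesins under 10 TPM. Both classes consist of long genes with long coding sequences. The median gene span was 38.2 kb for mitotic and 51.5 kb for transport kinesins, against 17.7 kb for all protein-coding genes, and the median of the longest coding sequence was 920 codons for mitotic and 1038 codons for transport kinesins, against 397 codons.

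The pools gave close values for most of the family. Among the 39 kinesins with a mean of at least 1 TPM, 6 had a log2 ratio of TPM + 1 beyond 0.32 in either direction (15.4%), against 7.61% of protein-coding genes of at least that mean. By direction, 1 was higher in replicate 1 and 5 in replicate 2, against 3.31% and 4.30% of protein-coding genes. The share rises towards low levels in both. Between 1 and 5 TPM, 4 of 11 kinesins passed this limit, against 19.6% of protein-coding genes, and at 5 TPM or more 2 of 28 kinesins did, against 4.81%. None of the 19 kinesins with a mean of at least 15 TPM passed it. The median log2 ratio of replicate 1 over replicate 2 was -0.03 over mitotic kinesins and -0.03 over transport kinesins, against -0.04 over all protein-coding genes.

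The kinesin past the limit towards replicate 1 was Kifc1, with 3.44 TPM there and 2.23 TPM in replicate 2, a log2 ratio of 0.46. Its counts, 136 and 92, gave a log2 ratio of 0.66 with an exact 95% binomial interval of 0.27 to 1.06, which covers counting error only. Kifc1 shares 38.6% of its stretches of 50 bases with the copy Kifc5b on the same chromosome, and reads could be split between the copies, which makes its level uncertain. Summed with Kifc5b, the counts of 207 and 162 gave a log2 ratio of 0.45 (interval 0.14 to 0.75).

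The other 5 were higher in replicate 2. Kif18b differed by a log2 ratio of -0.42 in TPM, with 282 and 312 expected counts in replicates 1 and 2, whose ratio was -0.05 with an interval of -0.29 to 0.19. The gap lay in Kif18b-202, a noncoding transcript of 382 nucleotides with 0.550 and 2.40 TPM, while the complete Kif18b-201 had 4.35 and 4.47 TPM. Kif19a, a kinesin that trims motile cilia, had 1.69 and 2.58 TPM (log2 ratio -0.41), with a count ratio of -0.12 and an interval that spans 0 (-0.57 to 0.32). Kif17 had 0.910 and 1.41 TPM (log2 ratio -0.34), and its count ratio of -0.47 also had an interval that spans 0 (-1.04 to 0.09). For Kif27 and Kifc2 the counts moved the same way as TPM. Kif27 had 0.820 and 1.40 TPM (log2 ratio -0.40) and a count ratio of -0.73 (interval -1.17 to -0.30), and Kifc2 had 11.4 and 14.6 TPM (log2 ratio -0.34) and a count ratio of -0.33 (interval -0.47 to -0.18).

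**Figure D5:**
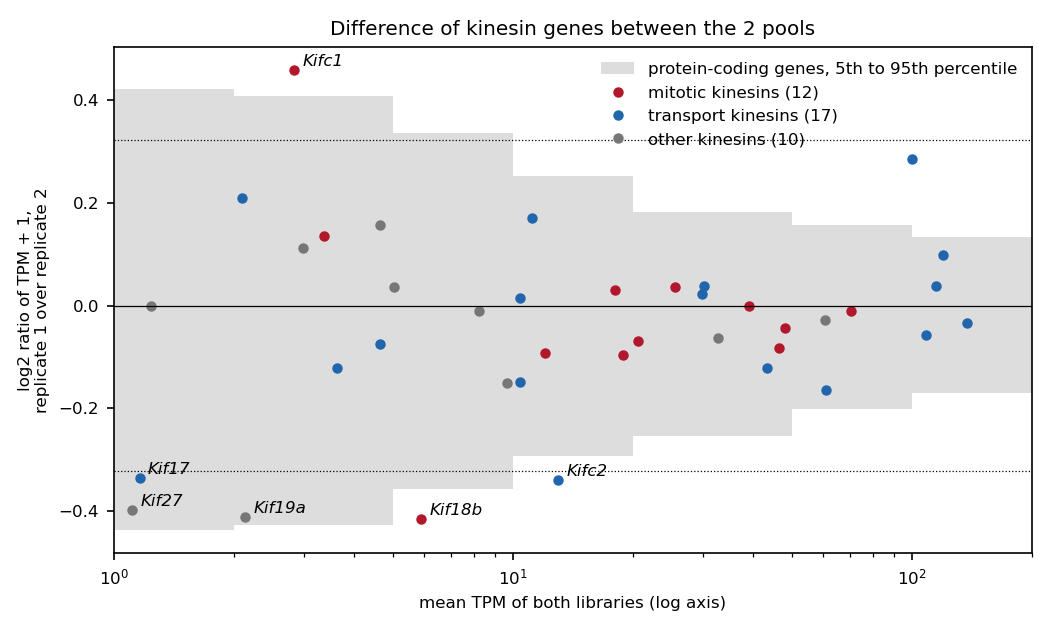
Difference between the pools for 39 kinesins with a mean of at least 1 TPM, as the log2 ratio of TPM + 1, replicate 1 over replicate 2, against mean TPM on a log axis, with the 5th to 95th percentile of protein-coding genes of like level in grey and dotted lines at 0.32 either side of 0. The 6 named genes lie past the lines, and the 19 kinesins of at least 15 TPM lie between them.

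By the deposited credibility intervals, 7 of the 39 kinesins did not overlap between the pools (17.9%), against 15.9% of protein-coding genes. They were Kif1b and Kif3b, higher in replicate 1, and Kif5a, Kif3c, Kifc2, Kif13a and Kif27, higher in replicate 2. By class these were 0 of 12 mitotic, 6 of 17 transport and 1 of 10 other kinesins, counts that were not set beside genes of like level. Kif5a, at 57.5 and 64.5 TPM, and Kif3c, at 41.5 and 45.3 TPM, had log2 ratios of -0.16 and -0.12 in replicate 1 over replicate 2. The deposited intervals need not hold the TPM value. Those of Kif5a, 54.6 to 57.2 in replicate 1 and 61.4 to 64.1 in replicate 2, end just below it, as do those of Kif3c. Kif3b, at 11.9 and 10.4 TPM, had a ratio of 0.17, and Kif13a, at 9.82 and 10.99 TPM, a ratio of -0.15. Kif1b, at 110 and 90.1 TPM, had a TPM ratio of 0.29 but a count ratio of -0.02 (interval -0.06 to 0.01).

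The pools also differed in marker transcripts of neighbouring tissues. The 4 sensory ganglion markers summed to 261 TPM in replicate 1 and 377 TPM in replicate 2, with all 4 higher in replicate 2, and the 4 muscle markers to 247 and 178 TPM, with all 4 higher in replicate 1. Of 4 neuronal markers 3 were higher in replicate 2, with Stmn2 at 455 and 569 TPM. For Tubb3 and Map2 the log2 ratios of -0.038 and -0.035 were near the median of -0.036 over all protein-coding genes. Elavl3 went the other way, at 48.5 TPM in replicate 1 and 43.9 TPM in replicate 2. The part of these tissues in the kinesin differences was not tested. The 4 markers of dividing cells summed to 527 TPM in replicate 1 and 528 TPM in replicate 2.

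Some levels are uncertain because genes overlap. In 17 of the 42 kinesins an exon shares bases with an exon of another gene, and nothing in the labels or headers states whether reads were counted by strand. Overlaps with genes of at least 10 TPM included 2617 bases between Kif3c and the antisense gene 1110002L01Rik (19.2 and 20.6 TPM), 1271 bases between Kif20a and Cdc23 (111 and 121 TPM), 1229 bases between Kif2a and Dimt1 (17.9 and 21.3 TPM) and 832 bases between Kif4 and Pdzd11 (95.2 and 96.8 TPM). Kif5c, Kif1a, Kif3a, Kif11 and Kif23 share no exon bases with another gene. Apart from Kifc1, Kif24 was the one kinesin to share over 5% of its 50-base stretches with other genes.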

How the data were processed

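Total RNA from pooled neural tubes was extracted with a mirVana kit, and 10 ng of RNA longer than 200 nucleotides with added spike-ins went into each library, per the labels. A later series that replaces these data, per the title, was not used here. Per the deposited read-me text, values come from transcriptome alignments to mm10 with GENCODE M4, and the quantifying program is not stated there. The deposited expected counts estimate how many reads came from a gene or transcript. In the deposited TPM values, effective length and depth are taken into account. Each transcript's part of its gene is a deposited percent value. The deposited signal columns are bounds of TPM credibility intervals whose level is not stated.

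Rows of mouse genes were named from GENCODE M21 on GRCm38 by identifier without version, and 21474 protein-coding genes matched. The 42 kinesins, their classes, the lists and the rule for named genes (list leaders, genes past the fold or with intervals apart, genes under 1 TPM) were chosen with earlier results of these data known. Ratios are replicate 1 over replicate 2 on log2(TPM + 1), which understates differences of low genes; a ratio beyond 0.32 was counted as different. Count ratios were scaled by gene count totals and TMM factors, with exact 95% binomial intervals. Counts rounded to whole numbers gave the edgeR 4.0.16 TMM factors, for the count ratios and the alternatives, and DESeq2 1.42.0 size factors for the alternatives. Shared 50-base stretches were searched in GENCODE transcripts, and motifs with Python 3.11.15 in RefSeq promoter windows, matched by symbol or Ensembl identifier. The scripts were tested on simulated data. Alternatives covered the pseudocount, scaling, filters, posterior means, folds, windows and leaving out each library, and with 1 group no test was made.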

Additional observations from a re-analysis of the deposited data

How the results depend on the processing

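The mitotic median lay below the transport median in every alternative tried. The difference of -0.57 (log2) was -0.62 to -0.52 with one library left out in turn, -1.07 with TMM-scaled CPM, which is not corrected for length, -0.32 with means over members, and -1.10 with the widely expressed transport kinesins left out. From complete coding transcripts, an alternative chosen after seeing the data like the others on transcripts, on Kifc1 and on the letters and place of the motif, it was -0.28. The mitotic share of kinesin TPM (25.1%) was 24.8% to 25.3% with one library left out, 19.3% by expected counts and 30.5% from complete coding transcripts. Detection (37 genes) was 37 to 39 with one library left out, 26 at 5 TPM and 35 from complete coding transcripts. The 6 kinesins with a log2 ratio beyond 0.32 became 0 at 1.5-fold, 3 with TMM-scaled CPM (Kifc1, Kif1c and Kif27), 2 with DESeq2 size factors, and 4 with posterior mean TPM. The long form's share of Kif1b (49.2%) was 42.2% to 56.1% with one library left out and 71.0% of complete coding transcripts. The 10 mitotic promoters with a CHR match were 5 upstream of the start. In all, 34 of the alternative values, some of them given above, stayed within a set limit. The limit was the spread between libraries, or 1.5 times the count for counts. For the median log2 ratios between the pools it was the wider spread over member genes, 0.20 for mitotic and 0.17 for transport kinesins. Part of the 34 was fixed in advance and shows nothing about stability. With 2 libraries, leaving out 1 cannot move a mean by more than their SD. The filter at a mean of 1 TPM took out no mitotic or transport kinesin, so it could not move their medians. The median log2 ratio of mitotic kinesins between the pools was -0.03 as reported and 0.01 with TMM-scaled CPM, a change of sign smaller than the spread of members. No other value changed sign. The cause of each shift was not tested. No paired analysis was possible because there is 1 group.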
